A study of Cordyceps militaris with 6 samples.

Results

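Passage 2 was set against passage 1 in a serial subculture of Cordyceps militaris strain YCC, the 2 lowest passage numbers of the study. The labels do not say whether the passages form 1 lineage or come from separate cultures, so a difference between them need not be a step within a line. The comparison rests on 2 of the 6 libraries of the study, chosen by the passage number in their labels, and the libraries of passages 3 to 6 were used to follow the same genes later. Each library holds poly(A) RNA from mycelium grown in shaken liquid culture for 72 h in the dark, and all 6 passages share the strain, the tissue and these conditions. Each passage has 1 library, so every difference is a value between single libraries and carries no test. In a bulk culture, fewer hyphae in a given state and less RNA per hypha cannot be told apart.

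Cordyceps militaris is an ascomycete that infects and kills insect pupae and is grown for its fruiting bodies and for the nucleoside cordycepin. Strains kept by repeated transfer of mycelium are known to degenerate, with a loss of fruiting, conidiation and pigment. Insect-pathogenic fungi are known to secrete proteases and chitinases, to rebuild their cell wall between growth forms and to take up iron with small chelators called siderophores, and these functions order the account of the genes. Product names are those of the deposited table, most of them taken from related proteins, and a role known only from another species is given with that species.

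Passage 1 held 9740171 counts and passage 2 held 13813999, the lowest and the highest totals of the 6 libraries. Ratios are log2 differences of TMM-scaled counts (CPM), and levels are FPKM as deposited, so a ratio and a pair of FPKM values need not match exactly. Of 10385 genes in the table, the 8483 that averaged 1 FPKM or more across the libraries were compared. Intervals beside ratios are 95% intervals of counting error only. Passage 1 stood alone, with the other 5 libraries all 2-fold or more above it or all below it, in 9.51% of genes. The same held for passage 2 in 0.306% of genes and for passages 3 to 6 in 0.566%, 0.0825%, 0.259% and 0.955%. Against passage 1, 26%, 20.5%, 25.5% and 23% of genes lay past 2-fold in passages 3 to 6.

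Between passages 1 and 2, 20.8% of the genes (1766) lay past 2-fold, with 9.8% (831) above and 11% (935) below passage 1. Large differences lay more often on the lower side. Past 4-fold were 133 higher and 194 lower genes, past 8-fold 34 and 80, and past 16-fold 5 and 30. For 322 higher and 650 lower genes the whole counting interval lay beyond 2-fold. Genes lower in passage 2 had a median of 49.7 FPKM in passage 1 and 19.9 in passage 2. The higher ones had medians of 5.04 and 15.8 FPKM, and all compared genes 23.9 and 25.6. The medians of the lower and higher genes were set in part by their choice on the ratio of these 2 libraries. Close to the 2-fold threshold, 187 genes lay just short of it by up to 0.05 log2, in either direction, and 148 just beyond it by up to 0.05. The split by direction depended on scaling: 47.1% of the genes past 2-fold were higher with TMM-scaled counts, 66.6% with total counts alone and 64.2% with FPKM as deposited. Total counts and FPKM placed the median of all genes 0.24 and 0.22 log2 above passage 1, against 0.02 with TMM. In the authors' deposited table of this pair of passages, 66.2% of 1892 listed genes were higher, and 1390 of them were past 2-fold in the same direction here, 73.5% of the listed genes and 78.7% of the genes past 2-fold here.

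The difference from passage 1 was the wide one. Past 2-fold between passages 2 and 3 were 4.74% of genes, and the later single steps had 5.38%, 4.5% and 9.34%. Of the genes higher in passage 2, 392 (47.2%) stayed past 2-fold in each of passages 3 to 6, as did 415 (44.4%) of the lower genes on their side. These 807 are the genes in which passage 1 stood alone. In passage 6, 85 (10.2%) of the higher and 122 (13.0%) of the lower genes lay within 0.5 log2 of passage 1 again, a band that held 46.6% of all genes. In each of passages 3 to 6, 54 of the higher and 83 of the lower genes lay within 2-fold of passage 1. In some later passage, 28 genes stood past 2-fold on the opposite side. These comparisons all share the passage 1 library.

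**Figure D1:**
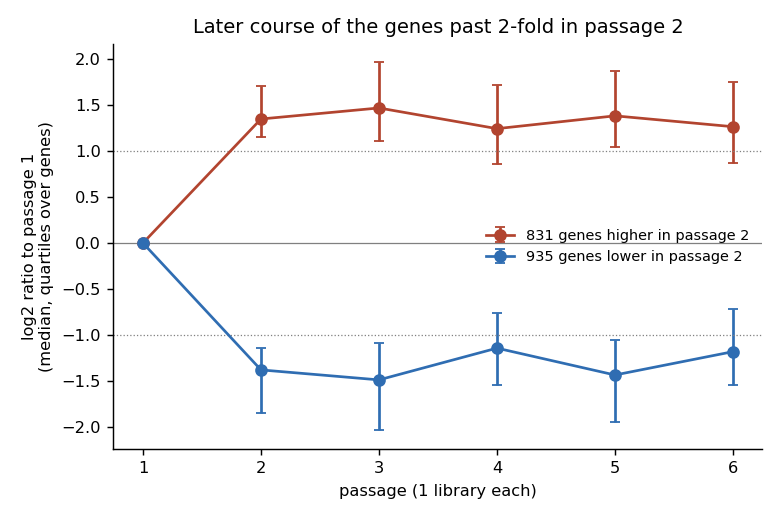
Median log2 ratio to passage 1 (y axis) in passages 1 to 6 (x axis, 1 library each) of the 831 genes past 2-fold higher and the 935 past 2-fold lower in passage 2, with bars for the quartiles over genes. The higher genes had medians of 1.35, 1.47, 1.24, 1.38 and 1.26 and the lower genes -1.38, -1.49, -1.14, -1.43 and -1.18 in passages 2 to 6; the value at passage 2 was set by the choice of genes.

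The course of the group was uneven. Passages 4 and 6 lay nearer to passage 1 than passages 3 and 5 did. Among the genes lower in passage 2, 122 lay within 0.5 log2 of passage 1 in passage 4 and 122 in passage 6, against 31 in passage 3 and 43 in passage 5. Among the higher genes the corresponding counts were 72 and 85, against 29 and 36. The step from passage 3 to passage 4 had 335 genes higher and 121 lower, the step to passage 5 had 90 and 292, and the step to passage 6 had 537 and 255.

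Gene length moved with the ratio. Across genes, which are not independent replicates, the log2 ratio and gene length had a rank correlation of -0.384. In the shortest of 5 equal groups, up to 0.795 kb, 21.0% of genes were higher and 6.07% lower, with a median ratio of 0.46. In the longest group, from 2.19 kb, 2.36% were higher and 19.4% lower, with a median of -0.42. With this trend removed, 627 genes were higher and 835 lower. Where removing the trend or using total counts alone turned the majority of a list, those counts stand beside it. Of the higher genes, 12.6% were loci outside the reference annotation, against 5.56% of the lower and 6.12% of all genes.

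**Figure D2:**
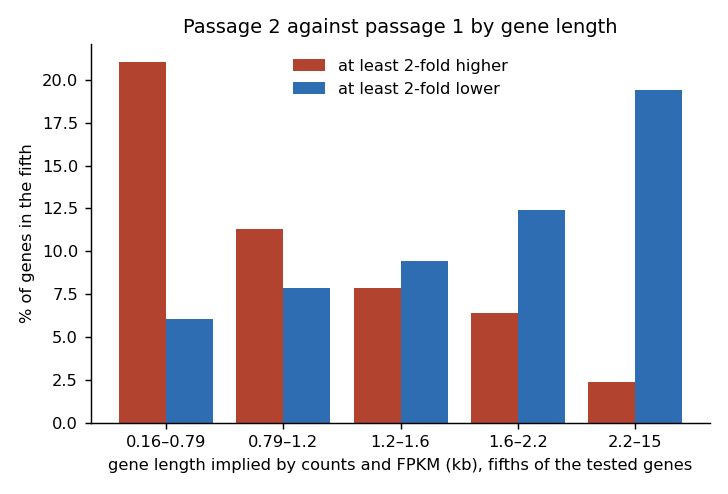
Share of genes in percent (y axis) past 2-fold higher or lower in passage 2, for 5 equal groups of the 8483 genes by the length implied by their counts and FPKM (x axis, kb). The share of higher genes goes from 21.0% to 2.36% and that of lower genes from 6.07% to 19.4% from the shortest to the longest group.

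The 20 lists of genes by function, matched on product text, held 1480 of the compared genes. Of these, 326 were past 2-fold, beside 1766 of all 8483 compared genes (20.8%), with 9.8% higher and 11% lower. Lists with more than 20% of members on one side were the peptidases and the iron genes on the higher side, and the hydrophobins, the amino acid, peptide and ABC transporters, the cell wall genes, the conidiation genes, the cytochromes P450 and the zinc cluster factors on the lower side.

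**Figure D3:**
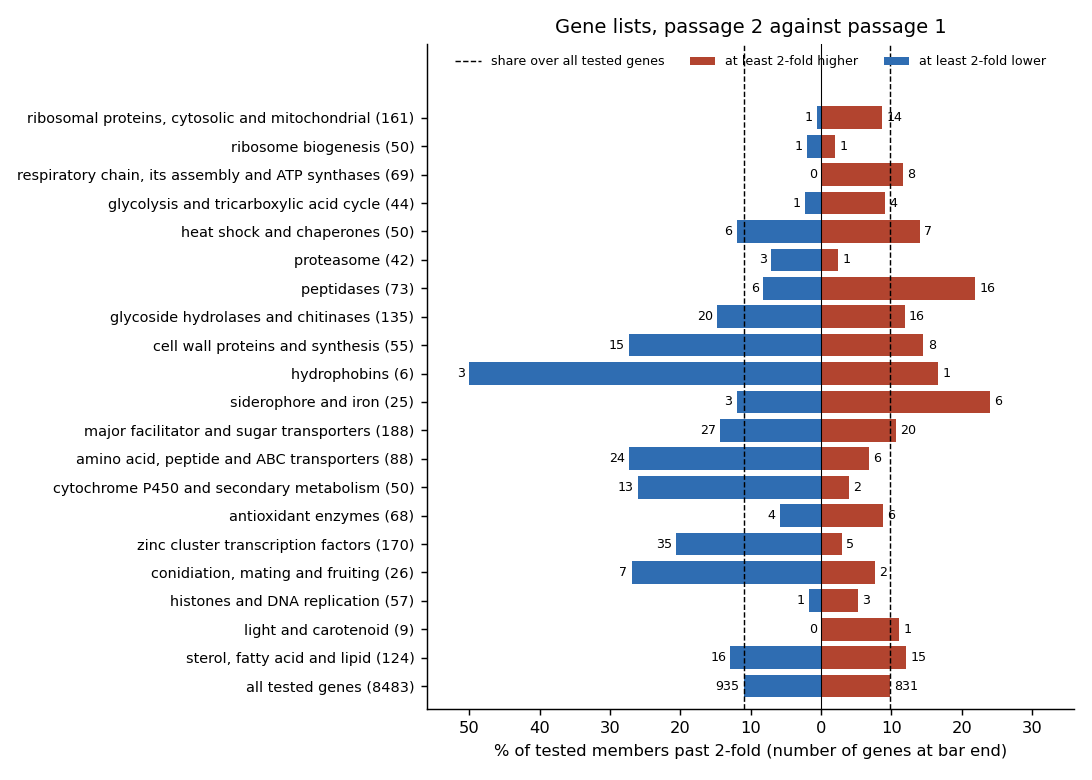
Share of the compared members of each list in percent (x axis) past 2-fold higher (right) or lower (left) in passage 2, with the number of genes at the bar end, the number compared in brackets, and dashed lines for all genes (9.8% and 11%). Peptidases and iron genes reach furthest to the right, and hydrophobins, of which 6 were compared, furthest to the left.

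Iron genes lay on both sides, and most were within 2-fold. Of 25 compared iron genes, 6 were higher and 3 lower, with a median ratio of 0.09, and the same counts with the length trend removed or with total counts alone. The siderophore transporter gene mirB (CCM_08808), named after its counterpart in Aspergillus nidulans, had 16.8, 202, 104, 11.3, 45 and 12.7 FPKM in passages 1 to 6. It was high in passages 2 and 3 and intermediate in passage 5. In passages 4 and 6 it lay below passage 1, with ratios of -0.85 and -0.65. An AMP-dependent synthetase/ligase (CCM_06702), which is in none of the lists, had 2.16, 18.2, 11.8, 2.21, 4.14 and 1.90 FPKM and a ratio in passage 2 of 2.86 (interval 2.59 to 3.15). Like mirB it was highest in passage 2, then 3, then 5, and low in passages 1, 4 and 6. The ferric-chelate reductase CCM_03525, of a family that reduces iron at the cell surface, had 3.09, 10.6, 12.1, 3.35, 6.16 and 2.71 FPKM and a ratio of 1.56 (interval 1.18 to 1.97), again high in passages 2 and 3 and low in 4 and 6.

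Of the iron genes past 2-fold, 3 of the 6 higher and 1 of the 3 lower stayed so through passage 6. Over all genes past 2-fold in passage 2, 47.2% of the higher and 44.4% of the lower did. The ferric-chelate reductases CCM_02323 and Fre2 (CCM_02451) had ratios of 1.55 and 1.34 and stayed past 2-fold to passage 6, as did the vacuolar iron transporter VIT1.2 (CCM_02265, ratio 1.36). The siderophore biosynthesis gene CCM_06700 had 4.99, 15.2, 13.5, 8.72, 10.4 and 9.73 FPKM, highest in passage 2 and above passage 1 in every later library. On the other side, the vacuolar iron transporter VIT1.1 (CCM_07642), of a family that stores iron in the vacuole, had 564, 154, 185, 232, 199.7 and 223 FPKM. Passage 1 stood above all later libraries, and the gene was 4.24-fold lower in passage 2. The low-affinity iron permease Fet4 (CCM_04300), known from budding yeast, had 302, 116, 121, 115, 93.3 and 217 FPKM and a ratio of -1.59, with passage 6 between passage 1 and the others. A further mirB-like gene (CCM_08330) had 14.8, 7.27, 8.13, 22.9, 14.4 and 17 FPKM and a ratio of -1.23, so genes of the same name lay on opposite sides in passage 2.

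Among the peptidases past 2-fold, most were higher. Of 73 compared peptidase genes, 16 (21.9%) were higher and 6 (8.22%) lower, with a median of 0.22, and 15 and 5 with the length trend removed. The higher ones were largely subtilisins and other serine proteases, a class that degrades insect cuticle in Metarhizium and Beauveria. The subtilisin-like gene PR1C (CCM_09365) had 71.6, 443, 1216, 442, 557 and 166 FPKM, and its ratio in passage 2 was 2.41 (interval 2.34 to 2.48). It was lowest in passage 1, highest in passage 3 and intermediate in the others. The tripeptidyl peptidase SED3 (CCM_03029), named after secreted peptidases of Aspergillus, had 0.84, 7.85, 12.7, 3.79, 6.17 and 6.72 FPKM and was 7.74-fold higher in passage 2, from 14 to 186 counts. The alkaline protease Alp1 (CCM_05422) had 32.3, 151, 174, 141, 92.8 and 106 FPKM and was 4.01-fold higher, with all later libraries above passage 1. Carboxypeptidase Y (CCM_02146), a vacuolar protease in yeast, had 27.9, 133, 232, 86, 101 and 54.7 FPKM and a ratio of 2.03. Of the 16 higher genes, 10 stayed past 2-fold through passage 6, against 47.2% of all higher genes. Among the 6 lower ones, the serine carboxypeptidase CCM_04554 had 5.93, 0.66, 0.29, 4.10, 0.87 and 2.24 FPKM and a ratio of -3.30, and the metalloprotease CCM_00326 a ratio of -2.19.

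The 8 higher genes of the cell wall list were all galactomannoproteins, mannose-rich proteins of the wall surface, and genes named SED1 and chitin synthase were among the lower ones. Of 55 compared genes, 8 (14.5%) were higher and 15 (27.3%) lower, with a median of -0.39, and 7 and 13 with a median of -0.47 once the length trend was removed. The galactomannoprotein Mp2-like gene CCM_00404 had 44.8, 379, 719.7, 167, 158 and 119 FPKM and a ratio of 2.87 (interval 2.71 to 3.03). It was lowest in passage 1 and highest in passage 3. A further galactomannoprotein, CCM_03075, had 9.60, 65.5, 116, 44.4, 46.8 and 30.6 FPKM and a ratio of 2.54. CCM_00403 had no count in passage 1 and 29 in passage 2, at least 5.87-fold higher if passage 1 is set to a floor of 3 counts, and CCM_00410 had 13 counts against none, at least 2.63-fold higher. Galactomannoprotein genes form a family of like sequence, so the division of reads among them is uncertain.

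On the lower side of the wall list stood genes with high levels in passage 1. The wall protein SED1 (CCM_08945), a mannoprotein anchored in the wall of budding yeast, had 790.3, 53.7, 44.1, 80.9, 65.5 and 106 FPKM and was 17.1-fold lower in passage 2. Passage 1 was the only high library. Another gene of that name (CCM_07202) had 785, 290.5, 234, 621, 472 and 619 FPKM and a ratio of -1.65, with passages 4 to 6 nearer to passage 1. The chitin synthases CCM_02966, CCM_02965 and CCM_08511, which polymerise the chitin of the wall, had ratios of -1.62, -1.67 and -1.18. The first of these had 294, 111, 88.5, 90.8, 68.6 and 90.0 FPKM, and all 3 stayed past 2-fold to passage 6. The chitin synthase activator CCM_06974 had 229, 113, 84.4, 137, 109.5 and 188 FPKM and a ratio of -1.23, and its passage 6 level lay nearer to that of passage 1.

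Enzymes that cut glucan and chitin were found on both sides. Of 135 compared glycoside hydrolases and chitinases, 16 (11.9%) were higher and 20 (14.8%) lower, with a median of 0.03. These shares lie near those of all genes, 9.8% and 11%. The counts were 23 and 17 with total counts alone, which turns the majority, and 20 and 22 with the length trend removed. The chitinase ChiA1 (CCM_06535) had 1493, 203, 112, 109, 116 and 190.4 FPKM, with passage 1 alone at a high level. Its ratio in passage 2 was -3.09 (interval -3.13 to -3.06). Chitinase 16 (CCM_08842) had 264, 38.4, 26.9, 56.9, 39 and 154 FPKM and a ratio of -2.99, with passage 6 nearest to passage 1. Other chitinases were higher from a low level: CCM_07471 had 2.83, 10.1, 15.1, 12.5, 15.2 and 11.4 FPKM and a ratio of 1.61, and CCM_08020 had a ratio of 1.44. Among the glucan enzymes the lectin/glucanase-like gene CCM_08732 had 148, 11, 7, 12.6, 5.94 and 10.1 FPKM, 15.5-fold lower in passage 2, and its family member CCM_05740 had 4.20, 41.8, 39.3, 20.8, 24.8 and 32 FPKM, 8.49-fold higher. Both kept their side in every later library.

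Some regulators and markers of conidiation were lower in passage 2, while most genes of that list were within 2-fold. Of 26 compared genes, 7 (26.9%) were lower and 2 higher, with a median of -0.61. With the length trend removed the counts were 4 and 2, and with total counts alone 5 and 3. The summed level of the list was 1637 FPKM in passage 1, 922.4 in passage 2 and between 853.8 and 1113 in passages 3 to 6, and 1 compared member had no count in passage 1. AbaA (CCM_05444), which drives late conidiophore development in Aspergillus nidulans, had 232, 52.4, 31.1, 81, 39.2 and 94 FPKM. Passage 1 was the highest library and passages 3 and 5 the lowest, and the ratio in passage 2 was -2.36 (interval -2.43 to -2.29). The gene for conidiation-specific protein 13 (CCM_00714), known from Neurospora, had 53.4, 5.41, 4.64, 12.3, 2.99 and 14.7 FPKM and was 11.2-fold lower. The phase-specific gene CCM_09641 had 369, 7.53, 6.60, 64.8, 8.12 and 123 FPKM, low in passages 2, 3 and 5 and partly higher in 4 and 6. VeA (CCM_04531), a light-dependent regulator of development in Aspergillus, had 86.1, 41.1, 34.6, 32.1, 32.5 and 33.7 FPKM and a ratio of -1.28, and the sexual development kinase CCM_05107 one of -1.15. The mating gene FIG1 (CCM_01276), which acts in mating of budding yeast, stood on the other side with 13.4, 46.5, 62, 47.2, 44.5 and 43.4 FPKM and a ratio of 1.57.

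Hydrophobins are small proteins that coat aerial hyphae and spores. Of 6 compared genes, 3 were lower and 1 higher. Of the lower ones 2 were near passage 1 again in passage 6, against 13.0% of all lower genes. With FPKM as deposited 2 were lower and 1 higher, with total counts alone 3 and 2, and with the length trend removed 3 and 0. CCM_06862 had 727, 149, 63, 476, 112 and 658 FPKM and was 5.67-fold lower in passage 2. It was high in passages 1, 4 and 6 and low in passages 2, 3 and 5. The trihydrophobin TCONS_00010198 had 16.3, 7.67, 6.34, 8.04, 6.29 and 27 FPKM, low in passages 2 to 5 and highest in passage 6. TCONS_00009105 had 32.6, 9.42, 5.12, 6.91, 5.86 and 13.3 FPKM and did not come near the passage 1 level again. CCM_07964 had 66.2, 163, 105, 269.6, 131 and 239 FPKM and a ratio of 1.09, with passages 4 and 6 the highest. The summed level of the conidiation list was also lower in passage 2, and its part in the hydrophobin levels was not tested.

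Among transporters that take up amino acids and peptides or pump compounds out of the cell with ATP, most of those past 2-fold were lower. Of 88 amino acid, peptide and ABC transporters, 24 (27.3%) were lower and 6 (6.82%) higher, with a median of -0.40. These are long genes with a median of 2.64 kb, and with the length trend removed 17 were lower and 7 higher, with a median of -0.04. The ABC transporter CCM_08739 had 281, 12.6, 25.4, 28.8, 11.3 and 18.2 FPKM and was 25.9-fold lower. ABC transporter CCM_03607 had 130.0, 15.1, 18.3, 49.1, 21.3 and 26.4 FPKM and a ratio of -3.32, and the CDR4 homologue CCM_06618, of a drug-efflux family, had 178, 25.7, 34.6, 111, 48.9 and 71.4 FPKM and a ratio of -3.01. All of them were lowest or nearly so in passage 2. Of the 24 lower genes, 14 stayed past 2-fold through passage 6, against 44.4% of all lower genes. The amino acid permease Dip5 (CCM_08453) had a ratio of -1.90 and the oligopeptide transporter CCM_02176 one of -1.03, from 106 to 60.4 FPKM, with 99 in passage 6.

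Of 188 major facilitator and sugar transporters, 20 (10.6%) were higher and 27 (14.4%) lower, with a median of -0.02. These shares lie near those of all genes, 9.8% and 11%. The counts were 27 and 17 with total counts alone, which turns the majority, and 22 and 24 with the length trend removed. The transporter gene CCM_08483 had 2 counts in passage 1 and 127 in passage 2, a ratio of 4.86 with an interval of 3.39 to 8.33. CCM_08259 and CCM_03001 were at the other end, with 29.4, 0.69, 0.40, 0.28, 0.24 and 0.11 FPKM and 26.6, 0.48, 1.22, 1.21, 1.09 and 0.94 FPKM, and both stayed low. CCM_00309 had 13.9, 1.02, 1.57, 14.1, 3.17 and 11.1 FPKM, and it was low in passages 2, 3 and 5 and near the passage 1 level in passages 4 and 6. Of the 27 lower genes, 13 stayed past 2-fold through passage 6, and 6 lay within 0.5 log2 of passage 1 there. Over all lower genes these shares were 44.4% and 13.0%.

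Among cytochromes P450 and genes of secondary metabolism, most of those past 2-fold were lower. Of these lower genes 3 were near passage 1 again in passage 6, against 13.0% of all lower genes. Of 50 compared genes, 13 (26%) were lower and 2 higher, with a median of -0.29, and 12 and 3 with the length trend removed. The P450 gene CCM_08012 had 87, 10.7, 17.5, 27.8, 7.70 and 75.9 FPKM and a ratio of -3.23 (interval -3.43 to -3.04). It was low in passages 2 to 5 and nearer to passage 1 in passage 6. TCONS_00014677 had 37.1, 4.47, 6.04, 24.2, 7.11 and 37.4 FPKM and TCONS_00014674 had 13.1, 2.81, 2.77, 11.5, 5.45 and 21.9 FPKM, both low in passages 2, 3 and 5. The benzoate 4-monooxygenase gene CCM_03254 had 11.2, 1.03, 0.18, 4.64, 1.36 and 20.7 FPKM and a ratio of -3.60, with passage 6 above passage 1. Sterol 14-demethylase (cytochrome P450 51, CCM_05535), an enzyme of ergosterol synthesis, had 661, 338, 254, 243, 258 and 257 FPKM and a ratio of -1.18, below passage 1 in all later libraries. The genes of cordycepin synthesis were within 2-fold in passage 2. There cns1 (CCM_04436) had a ratio of -0.65, cns2 (CCM_04437) of 0.44, cns3 (CCM_04438) of -0.03 and cns4 (CCM_04439) of -0.76. In passages 3 to 6 cns1 had ratios of -2.09, -1.10, -1.90 and -0.17, and cns2 of -0.68, 0.09, -0.91 and 1.12. Both cns3 and cns4 stayed within 2-fold of passage 1 there.

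Zinc cluster transcription factors, the main family of pathway regulators in fungi, lay mostly on the lower side where they were past 2-fold. Of 170 compared genes, 35 (20.6%) were lower and 5 (2.94%) higher, with a median of -0.32. With the length trend removed 29 were lower and 9 higher, and with total counts alone 21 and 8. The zinc cluster gene CCM_00657 had 234, 34.8, 31.6, 79.1, 42.2 and 101 FPKM, highest in passage 1, and a ratio of -2.96. CCM_05638, the most abundant one, had 2516, 769, 603, 344, 442 and 302 FPKM and a ratio of -1.92. CCM_00385 had 21.7, 1.99, 2.87, 18.5, 3.19 and 13 FPKM, low in passages 2, 3 and 5. CCM_02899 had 32, 12.8, 18.3, 31.5, 18.4 and 29.3 FPKM and a ratio of -1.53, near passage 1 again in passages 4 and 6. On the higher side, CCM_05346 had 14.9, 47.5, 73.9, 42.9, 45.6 and 24.9 FPKM and a ratio of 1.45. Of the 35 lower genes, 12 stayed past 2-fold through passage 6 and 6 lay within 0.5 log2 of passage 1 there. Over all lower genes these shares were 44.4% and 13.0%.

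Heat shock and chaperone genes lay on both sides. Of 50 compared heat shock and chaperone genes, 7 were higher and 6 lower, with a median of 0.21, and 6 on either side with DESeq2 size factors. With total counts alone 9 were higher and 3 lower, and with the length trend removed 6 and 5. Heat shock protein 78 (CCM_05892), a chaperone of the mitochondrial matrix in yeast, had 284, 1332, 1171, 1109, 1373 and 1295 FPKM and was 4.04-fold higher. HSP98 (CCM_07508), a disaggregase in Neurospora, had 1659, 4086, 3887, 4007, 4725 and 4314 FPKM and a ratio of 1.09. The co-chaperones GrpE (CCM_00863) and Cdc37 (CCM_01884) had ratios of 1.36 and 1.33. All of these were above passage 1 in every later library. The HSP20-like gene CCM_06217 had 70.7, 3.79, 4.71, 62, 12.3 and 38.9 FPKM and was 21.3-fold lower, low in passages 2, 3 and 5 and near its first level in passage 4. The gene related to Hsp150 (CCM_02125), a secreted wall protein in yeast despite its name, had 2814, 208, 71.2, 512, 156 and 995 FPKM and a ratio of -3.97. The Hsp70 genes CCM_03319 and CCM_03449 had ratios of -1.20 and -1.19.

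Ribosomal and respiratory genes are short, and their median ratios lay above that of all genes until the length trend was removed. Of 161 compared ribosomal protein genes, 14 (8.70%) were higher and 1 lower, with a median of 0.45 and a median length of 0.624 kb. With the length trend removed, 2 were higher and 3 lower, with a median of 0.04, and with total counts alone 32 and 0. The mitochondrial ribosomal protein gene MRP4 (CCM_01295) had 43, 132, 146, 128, 142 and 136 FPKM and was 2.65-fold higher. Of 69 genes of the respiratory chain and ATP synthase, 8 (11.6%) were higher and none lower, with a median of 0.42, and 4 and 2 with a median of -0.03 once the trend was removed, or 17 and 0 with total counts alone. The alternative oxidase (TCONS_00011552), which passes electrons to oxygen past the cytochrome chain, had 249, 867, 1235, 1247, 1546 and 1273 FPKM and was 3-fold higher, with every later library above passage 1. Among 50 ribosome biogenesis genes 1 was higher and 1 lower, and among 42 proteasome genes 1 was higher and 3 lower. The proteasome list had a median of 0.29 in the main setting. Its counts turned to 4 higher and 0 lower with total counts alone or FPKM as deposited. Removing the length trend left 0 higher and 1 lower proteasome genes, at a list median of 0.07. Of 57 genes of histones and DNA replication, 3 were higher and 1 lower, or 1 and 3 with the length trend removed, and of 9 light and carotenoid genes 1 was higher. The clock gene frequency (CCM_01014), a component of the circadian clock in Neurospora, had 219.8, 205, 144, 184, 123 and 239 FPKM and a ratio of -0.31, which was 0.08 with the length trend removed.

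Antioxidant genes lay on both sides, with few past 2-fold. Of 68 compared genes, 6 were higher and 4 lower, with a median of 0.17. With total counts alone 12 were higher and 2 lower, and with the length trend removed 6 and 5. Thioredoxin CCM_00331 had 96.3, 327, 272, 232, 347 and 356 FPKM and a ratio of 1.55, and thioredoxin I (CCM_07812) had 11.5, 49, 66.2, 55.5, 58.5 and 63.2 FPKM and a ratio of 1.86. The glutathione S-transferase CCM_03461 had 1.98, 10.1, 13.5, 30.4, 21.8 and 35.4 FPKM, higher in each later library than in passage 1. Catalase A (CCM_02506), which breaks down hydrogen peroxide, had 63.2, 8.48, 21, 154, 26.9 and 67.8 FPKM and was 8.61-fold lower in passage 2. It was lowest in passage 2, low in passages 3 and 5, highest in passage 4 and near the first level in passage 6. The glutathione S-transferase CCM_09286 followed with 40.9, 21.6, 22.5, 42.7, 21.6 and 57.9 FPKM.

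Lipid genes lay on both sides, at shares near those of all genes. Of 124 compared genes, 15 (12.1%) were higher and 16 (12.9%) lower, with a median of -0.06, and 10 and 14 with the length trend removed. With total counts alone the counts were 20 and 11, which turns the majority. The triacylglycerol lipase-like gene CCM_06066 had 52.1, 318, 293, 201, 251 and 189 FPKM and a ratio of 2.39, and its namesake CCM_08427 a ratio of 1.49. The fatty acid synthase subunits CCM_02998 and CCM_02997 had ratios of -1.17 and -1.50, the first of them from 371 to 191 FPKM. The oleate desaturase CCM_06866, which adds a double bond to oleate, had 383, 161, 107, 126, 94.6 and 133 FPKM. All 3 were lower than passage 1 in every later library. The sterol methyltransferase CCM_04684 had 268, 28.7, 14.8, 56.3, 21.3 and 51.5 FPKM and was 10.8-fold lower. The fatty acid hydroxylase CCM_00413 had 64.8, 1.43, 1.12, 61.1, 5.75 and 17.8 FPKM, almost absent in passages 2 and 3 and near its first level in passage 4, and its neighbour by locus tag, the ubiquitin ligase gene Hul4 (CCM_00412), had 59.7, 0.10, 0.63, 90.2, 6.48 and 19.1 FPKM. Hul4 had 424 counts in passage 1 and 1 in passage 2, a ratio of -8.36 with an interval of -14.75 to -6.96.

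In central carbon metabolism 4 of 44 genes were higher and 1 lower, with a median of 0.18, or 3 and 0 with the length trend removed. A gene annotated as phosphoglycerate mutase (CCM_02604) had a ratio of 2.04, from 11 to 78 counts, and hexokinase-1 (CCM_04625) one of -1.17. The genes that follow are not in this list. Cysteine synthase B (CCM_00844), the last step of cysteine synthesis, had 19.9, 175, 428, 477, 641 and 65.5 FPKM and was 7.55-fold higher. It was highest in passage 5 and stood above passage 1 in every later library. Its neighbour by locus tag, the major facilitator transporter CCM_00843, had 8.65, 49.7, 97.4, 82.8, 94.7 and 19.1 FPKM, likewise high in passages 2 to 5 and lower in passage 6. D-3-phosphoglycerate dehydrogenase (CCM_05096), the first step of serine synthesis, had 36, 119, 80.4, 68.5, 99.8 and 56.3 FPKM and a ratio of 1.52, highest in passage 2 and within 0.5 log2 of passage 1 in passage 6.

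Genes lower in passage 2 and near passage 1 again in passage 6 included several that were high in passages 1, 4 and 6 and low in 2, 3 and 5. The flavin-binding monooxygenase-like gene CCM_08104 had 153, 28, 33, 195, 53.1 and 174 FPKM and ratios of -2.66 in passage 2 and -0.06 in passage 6. The RTA-like gene CCM_00023, of a membrane protein family, had 276, 53.5, 45.6, 196, 78.6 and 234 FPKM, with ratios of -2.58 and -0.48. The allergen gene TCONS_00012483 had 44.8, 8.24, 19.3, 65.9, 17.4 and 47.8 FPKM and the O-methyltransferase CCM_06472 had 40.3, 7.74, 4.14, 31.4, 13.8 and 64.3 FPKM. In all 4, passages 2, 3 and 5 were the lowest by FPKM. Further genes with these libraries low were a fasciclin domain gene (CCM_08205), with 293, 89.2, 102, 249, 119 and 296 FPKM, and the glycoside hydrolase CCM_04240, with 68.6, 26.7, 22.9, 61.9, 29.7 and 62.6 FPKM.

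Among genes higher in passage 2 and near passage 1 in passage 6, the amine oxidase CCM_00373 had 47.6, 469, 579, 367, 438 and 82.7 FPKM and a ratio of 3.09 (interval 2.98 to 3.19). It was high in passages 2 to 5 and its ratio in passage 6 was 0.55, just outside the band of 0.5 log2. The CFEM-domain gene CCM_09020, of a family of extracellular fungal proteins, had 84.4, 259.9, 248, 71.2, 160.4 and 83.7 FPKM, high in passages 2, 3 and 5. The FUN34 family gene CCM_07625 had 222, 627, 471, 332, 529.6 and 275 FPKM, with the same libraries high. The nickel transporter nic1 (CCM_05873) had 47.1, 136, 157, 82.8, 116 and 59.8 FPKM and a ratio of 1.31.

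**Figure D4:**
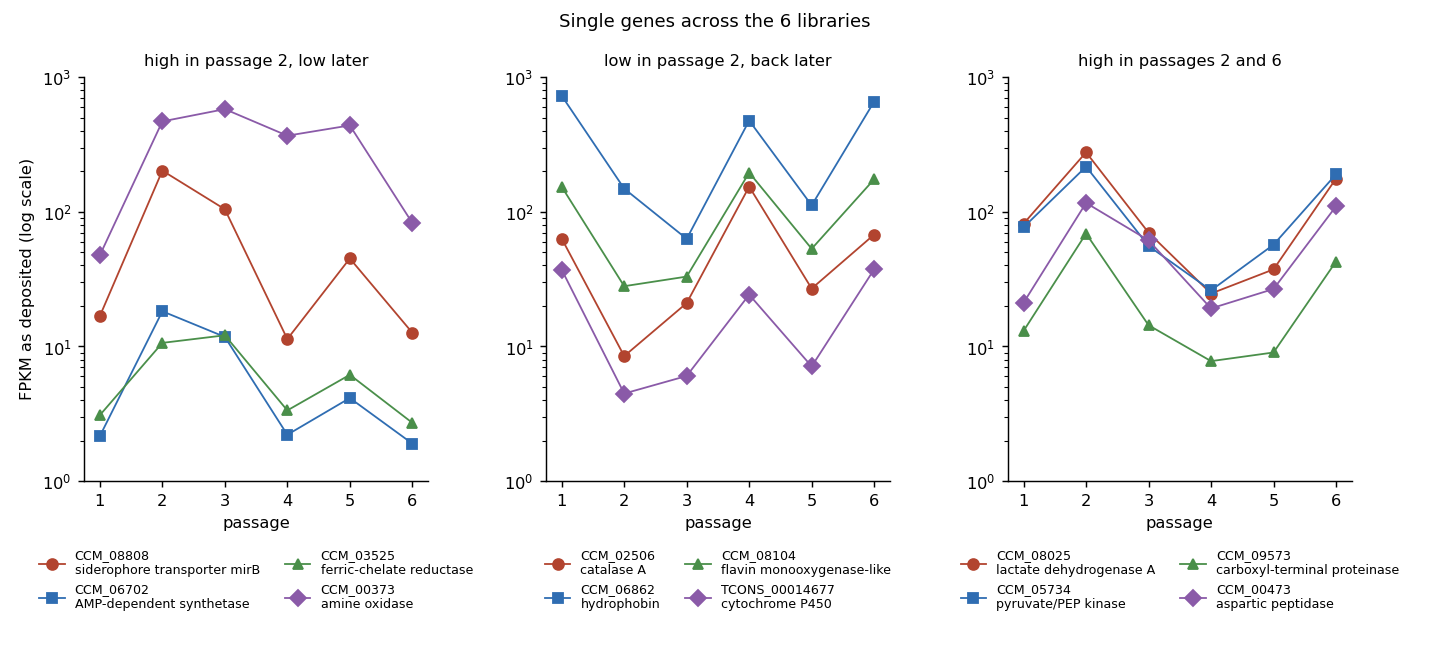
FPKM as deposited on a log scale (y axis) against passage (x axis, 1 library each) for 3 panels of 4 genes. The first 4 were high in passage 2 and lower in passage 6, the amine oxidase among them high through passage 5. The next 4 were low in passage 2 and back later, and the last 4 high in passages 2 and 6. Catalase A goes from 63.2 FPKM in passage 1 to 8.48 in passage 2, 154 in passage 4 and 67.8 in passage 6; mirB goes from 16.8 to 202 and is at 12.7 in passage 6.

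Some genes were high in passages 2 and 6 and lower between them. L-lactate dehydrogenase A (CCM_08025), which interconverts pyruvate and lactate, had 81.6, 276, 70.0, 24.7, 37.4 and 176 FPKM and a ratio of 1.54. A pyruvate/phosphoenolpyruvate kinase domain gene (CCM_05734) had 76.7, 217, 55.8, 26.1, 57 and 189.8 FPKM and a ratio of 1.28. The carboxyl-terminal proteinase gene CCM_09573 had 13.1, 68.9, 14.4, 7.78, 9.02 and 42.7 FPKM, and the aspartic peptidase CCM_00473 had 21.1, 116, 61.4, 19.2, 26.7 and 109.8 FPKM. In all 4, passage 4 was the lowest of the later libraries. The cupredoxin CCM_01913, of a family of copper proteins, had 11.2, 32.6, 5.91, 5.31, 5.75 and 18.7 FPKM.

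In 26 genes (0.306%) passage 2 stood alone, 5 of them higher and 21 lower. Besides mirB and catalase A these included the galactomannoprotein CCM_06851, with 3.02, 45, 20.4, 4.55, 9.73 and 10.2 FPKM, highest in passage 2 and next highest in passage 3. The glycosyltransferase CCM_01739 had 108, 2.35, 15.2, 63.6, 17.7 and 14.1 FPKM and was 51.5-fold lower in passage 2, and the major facilitator gene CCM_05660 had 51.1, 8.96, 21.9, 93.2, 27.4 and 107 FPKM. The a-factor exporter CCM_06056, named after the pheromone pump of yeast, had 28.4, 12.7, 27.2, 27.3, 31 and 53.6 FPKM and a ratio of -1.37, with passage 2 the lowest library. The Grg1 genes CCM_05039 and CCM_05594, glucose-repressible in Neurospora, had 3 and 4 counts in passage 2 against 7 and 9 in passage 1, too few for a firm ratio.

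Neighbouring genes often lay on the same side. Of 726 reference genes that were higher, 23.0% had a higher gene directly beside them, against 14.4% of all compared reference genes, and of 883 lower genes 29.3% had a lower gene beside them, against 17.3%. There were 9 runs of 4 or more consecutive genes past 2-fold in the same direction, 3 higher and 6 lower. The longest was CCM_08011 to CCM_08016, 6 genes annotated as a major facilitator transporter, a cytochrome P450, a FAD-binding protein, a short-chain dehydrogenase, a DltD domain protein and a beta-ketoacyl synthase. Such a mix is typical of polyketide clusters in fungi. The beta-ketoacyl synthase CCM_08016 had 56, 4.34, 11.2, 9.87, 4.77 and 11.3 FPKM, 15-fold lower in passage 2, and the short-chain dehydrogenase CCM_08014 had 44.9, 1.27, 32.1, 8.57, 1.33 and 8.41 FPKM, 37.9-fold lower. The median ratio over the run was -3.57, -2.47, -2.61, -3.91 and -2.51 in passages 2 to 6. Within it CCM_08012 was near passage 1 in passage 6 while its neighbours were not.

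Runs of lower genes with amino acid adenylation domains, the activating unit of non-ribosomal peptide synthesis, had medians near passage 1 again in passage 6. Single genes in them, such as CCM_03255 and CCM_00620, stood above passage 1 there. Over CCM_03252 to CCM_03255 the median ratio was -2.40 in passage 2 and 0.06 in passage 6. The adenylation gene CCM_03255 had 10.2, 1.36, 1.42, 2.82, 1.19 and 20.9 FPKM, low in passages 2 to 5 and highest in passage 6. Over CCM_00618 to CCM_00621 the median was -1.75, -2.73, -1.01, -2.46 and 0.12 in passages 2 to 6. Its pyridoxal phosphate-dependent transferase gene CCM_00620 had 36, 9.06, 2.97, 23.2, 5.74 and 95.8 FPKM, with the same alternation.

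Among the higher runs, CCM_00372 to CCM_00376 had median ratios of 1.47, 2.11, 1.85, 1.62 and 0.30 in passages 2 to 6. It holds a glutamyl-tRNA amidotransferase gene (CCM_00372, 6.24, 64.8, 78.1, 39.8, 48.7 and 10.7 FPKM), the amine oxidase CCM_00373, a FAD-dependent oxidoreductase (CCM_00374, 30.0, 96.9, 158, 132, 106 and 43.9 FPKM) and a major facilitator transporter (CCM_00375, 227, 627, 628, 574, 454 and 159.8 FPKM). All of these were high in passages 2 to 5. The run CCM_00402 to CCM_00406, an HLH transcription factor, galactomannoproteins and a transporter, had medians of 2.07, 3.44, 1.72, 1.52 and 0.97. The run CCM_06063 to CCM_06066, which ends with the lipase-like gene CCM_06066, kept its side, at 1.85 in passage 2 and 1.45 in passage 6.

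Splice junctions gave a second view of the same libraries. Passage 1 had 5696084 junction reads and passage 2 had 9566795, or 58.5 and 69.3 per 100 gene counts, and passages 3 to 6 had between 68.1 and 70.2. Of 17264 junctions, 14348 were listed in both libraries, 633 only in passage 1 and 2283 only in passage 2. An unlisted junction is not the same as a rare one: 54 junctions were unlisted in some passage although each passage that listed them had at least 100 reads. Ratios were therefore taken where both libraries list the junction, with at least 20 reads over them. Of these 13674 junctions, 22.8% lay past 2-fold, with 8.95% above and 13.8% below passage 1.

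Most junctions lay near the ratio of their gene, and most genes and junctions were themselves within 2-fold of passage 1. Of 12441 junctions in a compared gene, 95.6% lay within 2-fold of the ratio of the gene, after the median offset between junctions and genes was subtracted. Of the 2793 that were past 2-fold, 1637 (58.6%) had a gene past 2-fold on the same side. The GMC oxidoreductase gene CCM_06408, for example, had 4 of the lowest junction ratios, from -5.70 to -5.45, beside a gene ratio of -4.89. The authors' class "Known" took 77.1% of junction reads in passage 1 and 76.2% in passage 2, and the class "intergenic" took 4.83% and 5.68%. The class "AFS" took 3.62% and 3.93% and "ES" 1.08% and 0.975%. The sources used here do not explain the class words. The Wilson interval of the class "Known" was 77.03% to 77.10% in passage 1 and 76.14% to 76.19% in passage 2, for counting error only.

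Where an alternative junction shares an end with a junction of the class "Known", its share of both was compared. Of 399 such junctions, 11 had a higher and 13 a lower share in passage 2 with intervals that did not overlap, and the median share was 7.02% in passage 1 and 7.14% in passage 2. In the alanyl-tRNA synthetase gene CCM_05475, which charges a tRNA with alanine, the alternative junction held 5.71% in passage 1, 11.4% in passage 2 and 12.8%, 13.0%, 15.2% and 11.3% in passages 3 to 6. Passage 1 was the low library there. In the bZIP transcription factor gene CCM_04263 the share was 27.2% in passage 1 (interval 22.5% to 32.5%) and 15.4% in passage 2 (12.3% to 19.0%), and it lay between 10.2% and 16.3% later. In the Pumilio domain gene CCM_04818, of an RNA-binding family, it was 36.7% and 23.4%.

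Some junctions lay far from the ratio of their gene. In the vacuolar protein-sorting gene CCM_08659, homologous to a yeast gene of endosomal sorting, a "Known" junction on the minus strand of scaffold NW_006271975.1, with its intron from 1380921 to 1381002 in the coordinates of the files, had 12, 380, 106, 795, 447 and 911 reads in passages 1 to 6, a ratio in passage 2 of 4.24, while the gene had a ratio of -0.31. In the LysM domain gene CCM_08843, of a chitin-binding family, a junction on the same scaffold, with its intron from 1946617 to 1946666, had 7, 180, 21, 370, 233 and 1007 reads, a ratio of 3.94 against a gene ratio of -2.52. Both junctions were lowest in passage 1, low in passage 3 and highest in passage 6. In the arginine methyltransferase gene CCM_06888 a junction had 238, 20, 14, 16, 398 and 24 reads, high in passages 1 and 5 only, with a gene ratio of -0.33. The gene CCM_05413, annotated as an immunogenic protein, had a junction with 274, 35, 283, 28, 28 and 312 reads, high in passages 1, 3 and 6. In the GAPDH gene CCM_04549, a glycolytic enzyme, a junction of class "IR" had 113 reads in passage 1 and 9 to 16 in the later libraries.

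Allele shares at variant sites differed between the libraries on 3 scaffolds, and some of the genes and junctions above lie there. Of 50969 variant sites with at least 20 reads in both libraries, 1877 differed by at least 0.2 in allele share between passages 1 and 2, and 1715 of these were on the scaffolds NW_006271973.1, NW_006271974.1 and NW_006271975.1. The share of such sites was 10.6%, 9.44% and 15.2% on these and 0.345% to 0.525% on the other large scaffolds. At the 1715 sites the median difference from passage 1 was 0.357 in passage 2, a value set in part by the choice of sites, and 0.108, 0.697, 0.482 and 0.793 in passages 3 to 6. Passage 3 thus lay nearest to passage 1 at these sites and passage 6 farthest.

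Among genes with at least 3 such sites, the lower ones outnumbered the higher ones. Of 192 such genes, 10 (5.21%) were higher and 41 (21.4%) lower, with a median ratio of -0.31. Of 1244 other genes with at least 3 covered sites on the same scaffolds, 5.63% were higher and 12.2% lower, with a median of -0.11. In the longest of the 5 length groups of all compared genes, 19.4% were lower, with a median of -0.42. The part of gene length in the difference between these 2 sets of genes was not tested. CCM_08843 is among the 192. At 1 of its 8 such sites the allele share differed from passage 1 by 54.1, 5.62, 94.3, 97.6 and 99.6 percentage points in passages 2 to 6. Over the 8 sites the difference in passage 3 ran from 3.95 to 60.6 points, so the nearness of passage 3 to passage 1 depended on the site. At 1 of the 2 such sites in CCM_08659 the share differed by 48.1, 14.7, 76.5, 57.0 and 83.4 points in passages 2 to 6. At the other site in CCM_08659 the difference was 71.9, 56.2, 80, 80 and 80 points. The order of libraries by junction reads was that of the allele share at the first of these CCM_08659 sites, while at the other passages 4 to 6 were level. At the first site given for CCM_08843 passage 5 stood above passage 4, and in the junction reads of that gene it stood below. At most other sites of CCM_08843 passages 4 and 5 were level. At the level sites of both genes the difference was the largest that the passage 1 share allows, so these sites cannot rank the passages. Of the junctions on the 3 scaffolds, 5.45% lay 2-fold or more from their gene's ratio, against 3.99% of those elsewhere. The part of allele differences in the read counts of these genes and junctions was not tested.

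**Figure D5:**
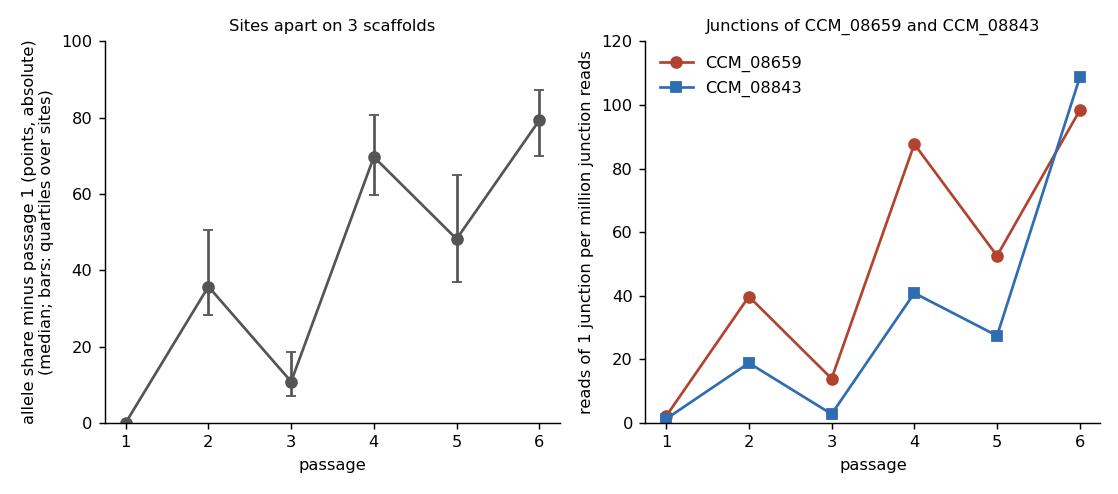
Left, absolute difference in allele share from passage 1 in points (y axis, median with quartiles over 1715 sites chosen as at least 0.2 apart between passages 1 and 2 on 3 scaffolds) by passage. Right, CPM of a junction of CCM_08659 and of CCM_08843, with all junction reads as the total, by passage; both junctions are lowest in passage 1 (2.11 and 1.23 CPM) and highest in passage 6 (98.3 and 109).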

How the data were processed

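The authors deposited 1 table with an expected count and an FPKM value per gene and library, per the file headers. Bowtie, TopHat2, Cufflinks, edgeR and FastQC are named in the submitters' processing notes; the genome build, the strand of counting and the settings of these tools were not given in the sources used here. Reads of overlapping, antisense or near-identical genes are therefore of uncertain origin. Counts of junction reads, the class words, and pairs of read counts at variant sites were used as deposited, per the file headers. The authors' deposited table of this comparison, with log2 ratios, p-values and false discovery rates, rests on 1 library against 1 library.

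Columns were matched to passages by name, and 52 other columns with values of samples were left unused. Expected counts were rounded to whole numbers, and libraries were scaled by TMM (edgeR 4.0.16, R 4.3.3) with a prior count of 1. Genes that averaged 1 FPKM or more were compared, with 2-fold as the threshold. Ratio intervals are exact binomial intervals from both counts, and share intervals are Wilson; amplified reads are not independent molecules. Gene lengths are those implied by counts and FPKM. Gene order came from a RefSeq table of assembly CmilitarisCM01_v01, in which 9651 genes of the deposited table were found by locus tag. Allele share is the share of alternative reads among reference and alternative reads, and differences are absolute. Scaling, ratios, the 2-fold threshold and the ratio intervals were tried on simulated counts with known fold changes and counting error only. The simulation held no length trend and no spread between cultures, and it did not cover junctions, allele shares or neighbours. Alternatives used DESeq2 1.42.0 size factors, total counts, FPKM as deposited, a lowess fit (statsmodels 0.14.6) on gene length, other filters and thinning (numpy 2.4.6). Figures used matplotlib 3.10.9.

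The genes and lists were chosen with earlier results of these data known, and list patterns were corrected for false matches after values were seen. Genes named by rule had a product name and reached 10 FPKM in passage 1 or 2: the 12 highest and 12 lowest ratios, the 8 largest each way among genes within 0.5 log2 of passage 1 in passage 6, the 6 largest each way among genes in which passage 2 stood alone, and the 4 largest in each list from 5 FPKM. Other genes, runs and junctions were chosen after their values were seen.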

Additional observations from a re-analysis of the deposited data

How the results depend on the processing

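No paired analysis was possible because each passage has 1 library, and for the same reason no library could be left out of a comparison. Among the counts over all genes and junctions, those that moved past 1.5 times were these. The count of genes at least 2-fold lower, 935, was 623 with total counts alone and 542 with FPKM as deposited. The genes within 2-fold of passage 1 in each of passages 3 to 6, 137, were 88 with FPKM. The genes in which passage 2 stood alone, 26, were 6 with FPKM, 10 with a prior count of 5, 49 with no filter beyond 1 count and 12 with a mean of at least 5 FPKM. The genes near passage 1 again in passage 6, 207, were 318 with no filter and 635 with a band of 1 log2. Under these settings the count of higher genes ran from 606 to 1240, that of junctions past 2-fold from 2586 to 3522. Of 630 recomputed ratios of genes named by rule, 469 stayed within the counting interval, 161 moved beyond it and 1 changed sign, that of CCM_01014, a gene within 2-fold, at -0.31 in the main setting and 0.08 with the length trend removed. The majority of genes past 2-fold turned from lower to higher with total counts alone and with FPKM, and so did that of several lists, whose counts stand beside them in the report. Chosen after seeing the data, a minimum of 10 counts in both libraries gave 639 higher and 898 lower genes, leaving out genes with allele sites gave 821 and 894, and unlisted junctions set to 4 reads gave 1535 higher and 1987 lower junctions. Depth limits genes near 0 counts, whose intervals are wide, and nothing here measures the spread between cultures.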
